A study of Homo sapiens with 2 samples.

Results

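The replication-dependent histone genes of 6p were examined in the open chromatin of CAMA-1 cells, a human breast cancer line of luminal epithelial character. The set held every GENCODE protein-coding gene in the histone region of the short arm of chromosome 6 (hg38) whose symbol begins with H1-, H2AC, H2BC, H3C or H4C, which gave 55 of 20033 protein-coding genes, with canonical start sites from chr6:25726562 (H2AC1) to chr6:27893425 (H2BC17). Of these, 6 encode the linker histone H1, 12 encode H2A, 15 encode H2B, 10 encode H3 and 12 encode H4. Accessibility was measured by ATAC-seq, in which the transposase Tn5 cuts and tags DNA that is not wrapped in nucleosomes, so that stretches with many tagged ends are called as peaks. Both libraries were biological replicates of 50000 untreated CAMA-1 cells grown in DMEM with fetal bovine serum. They form 1 condition with no control group, so values are described with their replicates and no test between conditions could be made.

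Histone proteins package DNA into nucleosomes, in which an octamer of H2A, H2B, H3 and H4 is wrapped by DNA and H1 binds the linker. Replication-dependent histone genes supply these proteins in S phase, carry no introns, and end in a conserved stem-loop in place of a poly(A) tail. Many H2A and H2B genes lie head to head and share the stretch of promoter DNA between them, and a few members (H1-6, H2AC1 and H2BC1) are known for expression in the testis.

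The lists held 245736 peaks in replicate 1 and 259745 in replicate 2. The peak caller's fold enrichment was the height of a peak over the background, with 1 added to each. It went in whole steps of the same size throughout a list, from which heights in stacked reads were recovered. A list gives a single value for each peak, so every TSS under a wide peak was given the same height. Where in the peak that height lay was not measured. The lowest peak held 11 stacked reads and the median peak 35 in both lists, and the highest held 1744 and 1759. A gene without a listed peak is a gene without a peak past the caller's threshold, not a gene shown to be closed. As a check of the cell type, canonical transcription start sites (TSSs) lay under a peak in both replicates for 8 of 8 luminal breast markers, 1 of 4 blood markers (CD14), 0 of 3 fibroblast markers and 0 of 3 endothelial markers. No testis marker (of DDX4, DAZL, TNP1 and PRM1) had a peak within 1 kb of a TSS.

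The label of the set was checked on the sequence of the genes. A perfect stem of 6 base pairs beginning with GG around a loop of 4 bases was found within 150 bases after the stop codon in 53 of 55 genes, all but H2AC11 and H2AC15. The 3 commonest forms, with the paired stem in capitals, are shown because this element defines the class; they occurred in 31, 9 and 8 genes, and the remaining 5 genes carried 4 other forms.
Form of 31 genes, among them H2AC1, H2BC1 and H2AC6: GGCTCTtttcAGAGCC
Form of 9 genes, among them H4C2: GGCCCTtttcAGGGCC
Form of 8 genes, among them H1-1 and H1-6: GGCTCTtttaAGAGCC
Thus the testis genes H1-6, H2AC1 and H2BC1 carried the element as well.

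Most, but not all, of the histone genes lay in accessible chromatin. A peak within 1 kb of any TSS was listed in both replicates for 41 of 55 genes (74.5%), against 79.3% of all protein-coding genes. The canonical TSS itself lay under a peak in both replicates for 38 of 55 genes (69.1%), against 65.0% of all protein-coding genes. These shares were near those of all genes, so the histone genes did not stand out by how often a peak was present. Under the stricter reading, 11 of 12 H2A genes, 10 of 15 H2B genes, 8 of 12 H4 genes, 6 of 10 H3 genes and 3 of 6 H1 genes were covered. Since neighbouring genes share peaks, the 38 covered TSSs lay under 26 distinct peaks in replicate 1 and 27 in replicate 2.

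**Figure D1:**
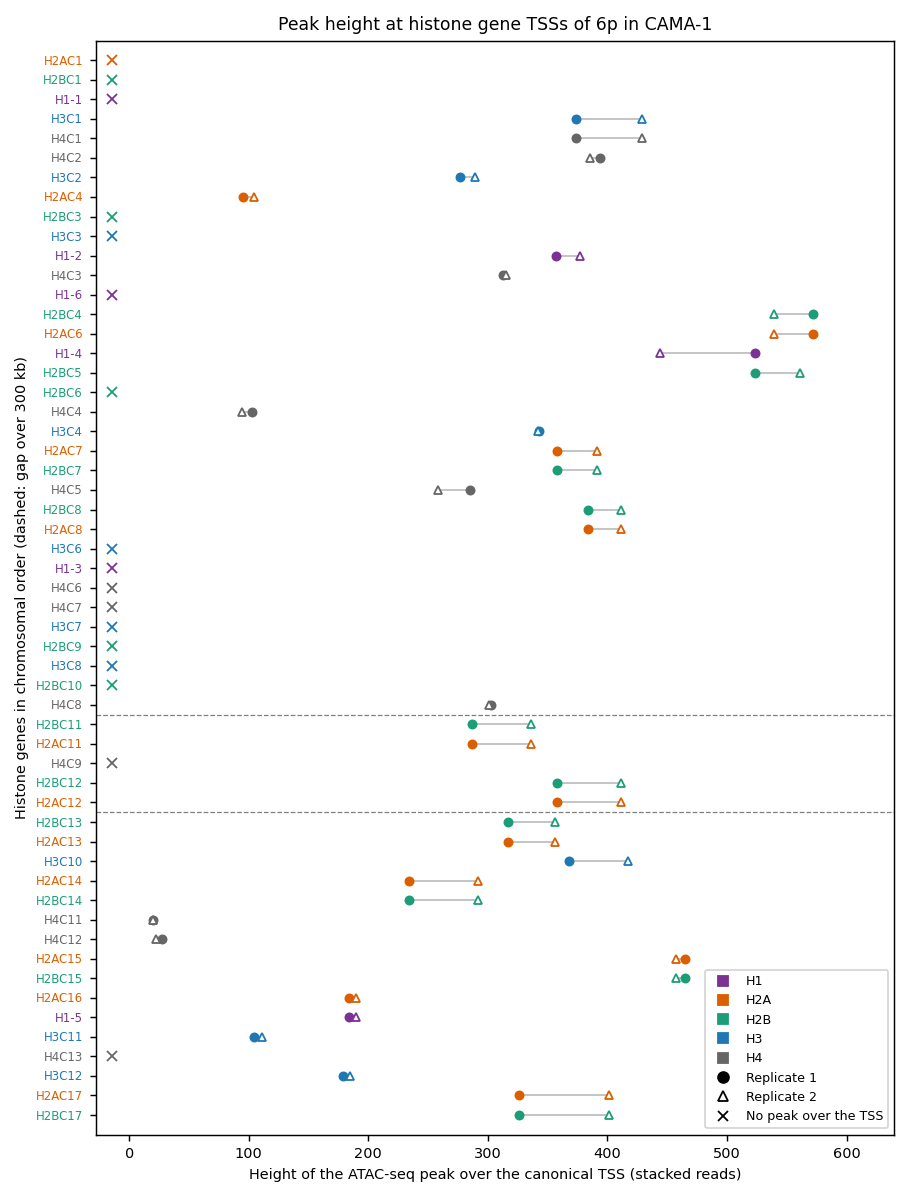
Height (stacked reads) of the peak over the canonical TSS of each of the 55 histone genes in chromosomal order, with filled circles for replicate 1, open triangles for replicate 2 and crosses for genes with no peak over the TSS. Covered genes range from 20 stacked reads at H4C11 to 572 at H2BC4 and H2AC6, and 8 neighbouring genes from H3C6 to H2BC10 carry no peak over the TSS.

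The replicates gave nearly the same picture of the covered genes. Over the 38 covered TSSs, the heights correlated at a Spearman coefficient of 0.965 and a Pearson coefficient of 0.969, as a description, since some genes share a peak. The height in replicate 2 divided by that in replicate 1 had a median of 1.07 and ranged from 0.815 to 1.25, and 26 of 38 genes were higher in replicate 2. Only H4C13, an H4 gene, changed its status: the nearest peak, which covers the TSS of the neighbouring H3 gene H3C11, ended 1015 bp from its TSS in replicate 1 and 993 bp from it in replicate 2. H1-6 also lay just inside the limit of 1 kb, with a peak at a distance of 980 and 962 bp.

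A group of 13 genes had no peak within 1 kb in either replicate: H2AC1, H2BC1, H1-1, H2BC3, H3C3, H1-3, H4C6, H4C7, H3C7, H2BC9, H3C8, H2BC10 and H4C9. Their canonical transcripts were equally bare, with 0 bases under a peak in 13 of 13 genes in both replicates. By contrast, among the 38 covered genes the peaks spanned the whole canonical transcript in 32 genes in replicate 1 and 31 in replicate 2. No covered gene had less than 30.3% of this transcript under peaks. The accessible stretch at a covered histone gene thus commonly took in the entire short canonical transcript and not its promoter alone. Some members are annotated over longer stretches, such as H2BC4 (chr6:26086317-26123926, with a canonical transcript of 460 bp), and these were not measured.

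A run of uncovered genes lay together in the first cluster. From H3C6 to H2BC10, 8 consecutive members had no peak over the canonical TSS, and their TSSs spread over 47797 bp (chr6:26225135-26272931). That stretch held H3C6, H3C7 and H3C8, the linker histone gene H1-3, H4C6, H4C7, H2BC9 and H2BC10. It was not without peaks, with 6 in replicate 1 and 7 in replicate 2. The highest reached 150 and 141 stacked reads, where the median peak of both lists held 35. H3C6 had a peak of 80 and 75 stacked reads over an alternative upstream TSS, at 801 and 731 bp from the canonical one. H1-3 lay 8206 bp from the nearest peak in replicate 1 and 8810 bp in replicate 2. Distances for H4C6 (2800 and 12884 bp) and H4C7 (1581 and 6281 bp) differed between the replicates, because weak peaks close to them were listed only in replicate 1. On the far side of the stretch, H4C8 was covered again, with a height of 303 and 301 stacked reads.

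Other uncovered genes lay outside this run. H1-1 had its nearest peak at 2458 and 2445 bp. The TSSs of H2BC3 and H3C3 span 1672 bp with no peak in between, and the nearest peaks were 3232 bp from H2BC3 and 1561 bp from H3C3 in both replicates. H4C9 lies between the covered pairs of the small middle cluster, with 2835 and 2806 bp to the nearest peak. H2BC6 had a strong peak, with a fold enrichment of 88.8 and 105, only at an alternative upstream TSS, and no peak closer than 1308 and 3131 bp to its canonical TSS. In the first cluster, from H1-1 to H4C8 over 268 kb, 19 of 32 canonical TSSs were covered. With the testis genes H2AC1 and H2BC1, which lie before H1-1, it was 19 of 34 (55.9%). In the cluster from H2BC11 to H2AC12, 4 of 5 (80.0%) were covered, and in that from H2BC13 to H2BC17, 15 of 16 (93.8%). The share over all protein-coding genes was 65.0%. Peaks took up 22.8% and 21.9% of the bases of the first cluster, and 32.6% and 32.4% of the second, with the third in between in both replicates. Over the whole histone region of 6p, stretches between the clusters included, they took up 9.60% and 9.31%. For chromosome 6 as a whole the shares were 3.35% and 3.50%.

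Reads from near-identical gene copies cannot be placed with certainty, so the share of words around each TSS that occur a single time in hg38 was counted over 500 bp. For the 13 uncovered genes, at least 84.4% of the 32-base words were unique, with a median of 99.8%, and every 100-base word was. At the 38 covered TSSs the median share of unique 32-base words was 97.9%. The part of repeated sequence in the missing peaks was not tested. Base composition also overlapped widely. GC content of the 500 bp around the TSS ran from 43.6% to 57.6% with a median of 48.8% in uncovered genes, and from 43.2% to 59.4% with a median of 50.9% in covered genes. The number of CpG dinucleotides in the same window had a median of 25.0 in uncovered and 28.5 in covered genes.

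How the histone genes compared with all genes in peak strength depended on how shared peaks and missing peaks were counted. Taking the strongest peak within 1 kb of a TSS and ranking genes without a peak lowest, the median fold enrichment was 66.3 in replicate 1 and 66.8 in replicate 2, against 38.9 and 40.0 over all protein-coding genes. The ratio of these medians was 1.69 ± 0.0252 (SD, n = 2 replicates). On the same chromosome, 996 other protein-coding genes had a median of 36.1 and 37.7, and the 22 other protein-coding genes of the window had 19.1 and 22.3. Both groups include a gene without a symbol whose strongest peak is that over H2AC7 and H2BC7. With every distinct peak counted once while each gene without a peak was still counted singly, the histone median was 31.8 and 33.5 against 35.4 and 36.6 for all protein-coding genes, a ratio of 0.906, so the direction turned. With every distinct peak counted once and genes without a peak left out, the median was 72.2 and 74.5 for the 27 peaks of histone genes in each replicate and 48.8 and 50.2 for all protein-coding genes.

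H2A and H2B genes had the highest medians of peak strength, and the medians of H1 and H4 genes were the lowest. Median fold enrichment was 74.2 and 82.8 for H2A, 75.2 and 86.7 for H2B, 44.1 and 44.4 for H3, 27.8 and 22.9 for H4, and 23.4 and 22.8 for H1. H2A and H2B do not stand for independent readings, since most of their genes share peaks in pairs. The positions of the other types depend on where a peak is looked for: within 3 kb of a TSS the H1 median was 62.7, and with the canonical TSS required to lie under the peak, an alternative added after the data were seen, the H4 median was 14.1. Each type held both strong and missing peaks, so the ranges of all types overlapped.

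**Figure D2:**
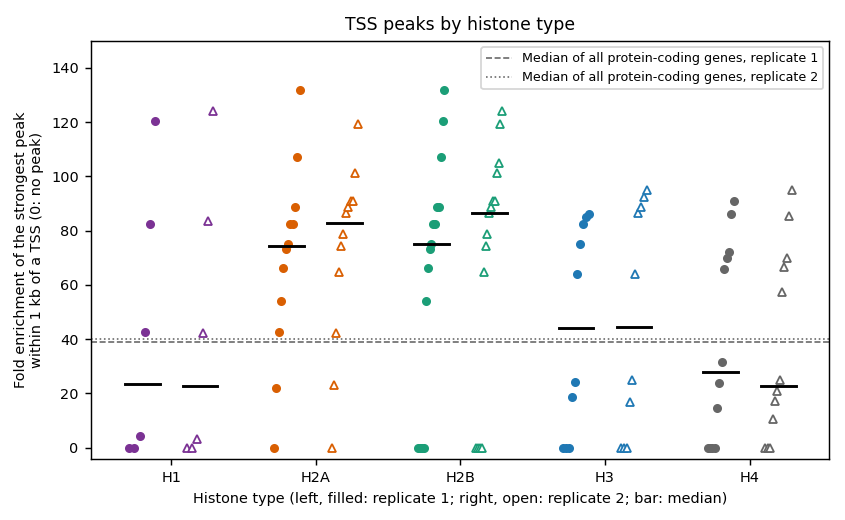
Fold enrichment of the strongest peak within 1 kb of a TSS for each histone gene by type (filled circles, replicate 1; open triangles, replicate 2; 0 marks no peak), with black bars for the type medians and horizontal lines for the medians of all protein-coding genes. H2A and H2B medians (74.2 to 86.7) lie above the lines at 38.9 and 40.0, H3 medians (44.1 and 44.4) slightly above, and H1 and H4 medians below.

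Divergent pairs of H2A and H2B genes mostly lay under shared peaks, as did most divergent pairs of the genome. With canonical TSSs on opposite strands, pointing apart and at most 1 kb from each other, 11 pairs were found, of which 10 joined an H2A to an H2B gene and 1 joined H3C7 to H2BC9. A single peak covered both TSSs in both replicates in 9 of 11 pairs (81.8%), against 91.0% of 984 divergent pairs among all protein-coding genes. Both exceptions carried no peak at all: the testis pair H2AC1 and H2BC1, with TSSs 215 bp apart, and the pair H3C7 and H2BC9, with TSSs 979 bp apart. So 9 of 10 pairs of H2A with H2B lay under a shared peak, and the remaining pair was that of testis. Among the 5 H2B genes outside such pairs, only H2BC5 was covered, whereas both unpaired H2A genes, H2AC4 and H2AC16, were covered, though by lower peaks of 95 and 104 and of 184 and 190 stacked reads.

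The DNA between the TSSs is shown for the testis pair, the pair with the highest peak and the pair with the lowest, because it is the shared promoter that the peaks cover. Sequences are from hg38, read 5′ to 3′ on the forward strand, and capitals mark matches on either strand to the TATA box, searched as TATAAA, where the basal transcription factor TFIID binds, to the CCAAT box, which NF-Y binds, and to the octamer, searched as ATTTGCAT, which the POU factor Oct-1 binds.
H2AC1 to H2BC1 (chr6:25726563-25726776, forward strand): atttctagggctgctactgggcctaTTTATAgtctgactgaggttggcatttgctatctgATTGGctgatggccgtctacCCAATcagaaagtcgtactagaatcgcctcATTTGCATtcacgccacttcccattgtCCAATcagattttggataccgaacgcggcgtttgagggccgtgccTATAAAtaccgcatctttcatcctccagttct
H2BC4 to H2AC6 (chr6:26123927-26124171, forward strand): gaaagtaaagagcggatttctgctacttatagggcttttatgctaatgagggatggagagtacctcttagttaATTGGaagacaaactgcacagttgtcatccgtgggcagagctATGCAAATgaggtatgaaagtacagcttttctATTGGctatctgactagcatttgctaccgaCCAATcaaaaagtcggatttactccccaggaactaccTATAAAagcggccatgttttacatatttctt
H2AC14 to H2BC14 (chr6:27814778-27815021, forward strand): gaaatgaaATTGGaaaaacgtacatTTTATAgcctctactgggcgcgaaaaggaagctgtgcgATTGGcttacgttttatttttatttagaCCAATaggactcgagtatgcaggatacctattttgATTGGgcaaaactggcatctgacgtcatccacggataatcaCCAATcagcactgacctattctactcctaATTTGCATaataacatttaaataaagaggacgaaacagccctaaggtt
All 3 stretches held CCAAT boxes in both orientations and an octamer, so the uncovered testis pair shared these letters with the pair of the highest peak.

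Peak heights of the covered pairs had a median of 358 stacked reads in replicate 1 (range 234 to 572) and 401 in replicate 2 (range 292 to 539). H2BC4 and H2AC6 lay under 572 stacked reads in replicate 1 (95% Poisson interval 526 to 621) and 539 in replicate 2 (494 to 586). These intervals, which cover counting error only, overlapped between the replicates. H2AC15 and H2BC15 followed with 465 and 457 stacked reads, and H2BC8 and H2AC8 with 384 and 411. At the lower end stood H2BC13 and H2AC13 with 317 and 356, H2BC11 and H2AC11 with 287 and 336, and H2AC14 and H2BC14 with 234 (205 to 266) and 292 (259 to 327). The highest and the lowest pair did not overlap in either replicate. Counting the pairs without a peak as lowest, the median fold enrichment over all 11 pairs was 75.2 and 86.7, against 60.3 and 61.4 over the other divergent pairs of the genome.

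Peaks over the pairs were wide and reached into both genes. TSSs of the covered pairs were 194 to 251 bp apart, while the peaks measured 1541 to 4031 bp in replicate 1 (median 2277) and 1189 to 3963 bp in replicate 2 (median 2331). From the TSSs outward they extended by 413 to 2503 bp. The longest of these, of 4031 and 3963 bp, lay over H2AC17 and H2BC17 and reached 2503 and 2436 bp beyond the TSS of H2BC17. Peaks over H2BC8 and H2AC8 and over H2AC15 and H2BC15 were listed at different lengths in the replicates, with 3341 against 1954 bp and 3448 against 2331 bp.

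**Figure D3:**
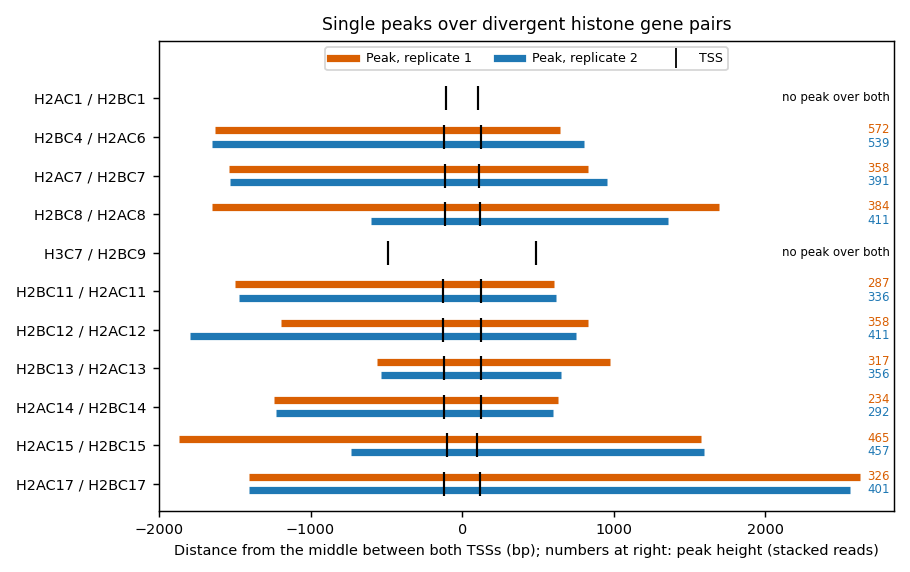
Extent of the single peak over both TSSs of each divergent histone pair, drawn around the middle between the TSSs (bp), with orange bars for replicate 1, blue bars for replicate 2, black ticks for the TSSs and the peak height in stacked reads at the right. In 9 of 11 pairs the bars cover both ticks in both replicates, and H2AC1 with H2BC1 and H3C7 with H2BC9 have no such peak.

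The same breadth was seen around single histone TSSs. At the TSS itself, 69.1% of histone genes and 65.8% and 66.0% of all protein-coding genes were under a peak. At 1500 bp downstream of the TSS, 47.3% and 43.6% of histone genes were still under a peak, compared with 14.6% and 14.9% of all protein-coding genes. Upstream at 1000 bp the shares were 36.4% and 40.0% for histone genes and 17.5% and 17.9% for all genes. Peaks over canonical TSSs had a median width of 2208 and 2097.5 bp for covered histone genes and of 1119 and 1130 bp for all covered protein-coding genes, each gene counting once. The covered H1, H3 and H4 genes all lie outside the divergent pairs. Their median widths were 2759 and 2506 bp for H1, 2050 and 906.5 bp for H3, and 1478.5 and 1559.5 bp for H4. The H3 median was thus below that of all genes in replicate 2. Other histone genes stand close by in this locus, so part of these flanking peaks lie over a neighbouring gene.

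**Figure D4:**
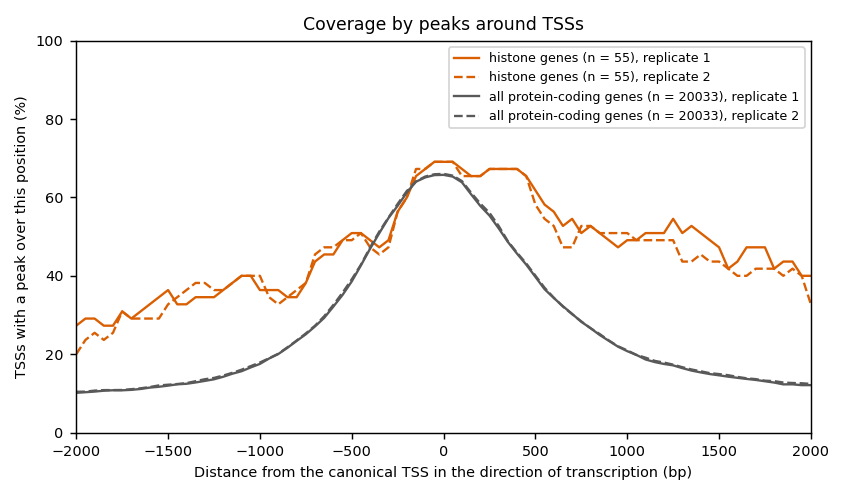
Share of canonical TSSs (%) with a peak over each position from 2000 bp upstream to 2000 bp downstream, for the 55 histone genes (orange) and all 20033 protein-coding genes (grey), with solid lines for replicate 1 and dashed lines for replicate 2. The curves meet at the TSS near 69.1% and 65.8% and part downstream, where at 1500 bp 47.3% of histone genes and 14.6% of all genes are under a peak in replicate 1.

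The H1 genes ranged from a strong peak to none. H1-4, H1-2 and H1-5, which encode somatic linker histones, had their TSSs under a peak in both replicates. At H1-4 the peak stood at 523 stacked reads in replicate 1, where it also covered H2BC5 over 5060 bp, and at 444 in replicate 2, where H2BC5 had a separate peak of 561. H1-2 had 357 and 377 stacked reads, and H1-5 shared a peak of 184 and 190 with the H2A gene H2AC16, at a fold enrichment of 42.6 and 42.2, close to the median of all genes. H1-1 and H1-3, which are also somatic, had no peak within 1 kb. The testis gene H1-6 had only a weak peak near the limit of 1 kb, with 17 and 14 stacked reads and a fold enrichment of 4.14 and 3.32. All 3 testis genes were therefore without a peak over the TSS, and of these only H1-6 had any peak within 1 kb. The nearest peaks lay 5780 and 2709 bp from H2AC1 and 5995 and 2494 bp from H2BC1.

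The 120 bases before the canonical TSS are shown for the strongest H1 gene, for H1-1 and H1-3 without a peak, and for the testis gene, so that accessible and bare promoters of a single type can be compared. They are from hg38, written 5′ to 3′ along the strand of the gene, and capitals mark AAACACA (the H1 box, an element of H1 promoters), CCAAT and TATAAA.
H1-4 (chr6:26156209-26156328, forward strand): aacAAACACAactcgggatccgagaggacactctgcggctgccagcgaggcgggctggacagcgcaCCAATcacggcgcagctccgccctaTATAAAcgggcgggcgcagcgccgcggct
H1-1 (chr6:26017788-26017907, reverse strand): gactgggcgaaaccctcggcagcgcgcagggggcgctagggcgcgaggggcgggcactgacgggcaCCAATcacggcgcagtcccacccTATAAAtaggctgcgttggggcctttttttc
H1-3 (chr6:26234988-26235107, reverse strand): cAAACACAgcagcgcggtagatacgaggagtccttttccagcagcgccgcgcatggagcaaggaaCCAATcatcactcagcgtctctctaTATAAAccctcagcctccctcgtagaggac
H1-6 (chr6:26108136-26108255, reverse strand): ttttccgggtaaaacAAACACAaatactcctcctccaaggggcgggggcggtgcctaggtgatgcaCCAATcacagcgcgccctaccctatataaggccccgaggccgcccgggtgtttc
A CCAAT box began at position -54 or -55 from the start in all 4 promoters, of which only that of H1-4 lay under a peak. H1-2, also covered but not shown, held CCAAT at position -57, the H1 box at -119 and no exact TATAAA in its 120 bases. The H1 box began at position -117 in H1-4, -119 in H1-3 and -105 in H1-6. Within the stretch shown, H1-1 held no H1 box, and H1-6 held no exact TATAAA.

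H3 and H4 genes, which encode the core of the nucleosome and lie mostly outside divergent pairs, ranged from the level of the strong pairs to no peak. H3C1 and H4C1 point the same way and shared a peak of 374 and 429 stacked reads. Among the other H3 genes, H3C10 stood at 368 and 417, H3C4 at 343 and 342, H3C2 at 277 and 289, H3C12 at 179 and 185, and H3C11 at 104 and 111. H3C11 was the lowest covered H3 gene in both replicates. The strongest peak within 1 kb of H3C12 (326 and 401) was that of the neighbouring pair H2AC17 and H2BC17, which also covers an alternative TSS of H3C12, and in the same way the strongest near H3C4 was that of H2AC7 and H2BC7. The H4 gene H4C2 was under 394 and 385 stacked reads, H4C3 under 313 and 315, H4C8 under 303 and 301, H4C5 under 285 and 258, and H4C4 under 103 and 94. H4C12 and H4C11 were the weakest covered members of the whole set, at 27 and 22 and at 20 and 20 stacked reads.

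These weakest readings coincided with sequence that occurs elsewhere in the genome. Of the 32-base words around the TSS, 21.8% at H4C11 and 26.6% at H4C12 were unique, and of the 100-base words 43.8% and 63.4%. Stronger peaks were listed nearby, with a fold enrichment of 14.5 and 10.6 within 1 kb of H4C11 and of 31.8 and 17.2 within 1 kb of H4C12. How reads that align equally well to several copies were treated is not given in the sources used here, so the heights at both genes are uncertain, and the part of repeated sequence in them was not tested. H2AC13 and H2AC14 also had little unique sequence, with 46.0% and 52.0% of 32-base words, yet lay under peaks of 317 and 356 and of 234 and 292 stacked reads.

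**Figure D5:**
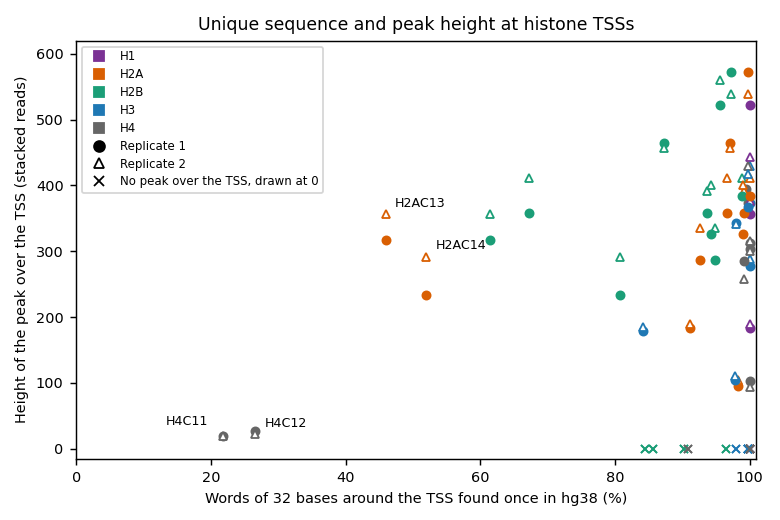
Height (stacked reads) of the peak over the canonical TSS against the share of 32-base words within 500 bp around the TSS that occur once in hg38 (%), for the 55 histone genes coloured by type, with genes without a peak drawn as crosses at 0. H4C11 and H4C12 combine the lowest shares (21.8% and 26.6%) with the lowest heights, whereas all crosses lie at 84.4% or more.

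For H4 and H3, the promoter of H4C2, the highest H4 gene in replicate 1 (H4C1 was higher in replicate 2), and those of H4C9 and H3C3, which had no peak, are shown in the same way. Capitals mark the TATA box, the CCAAT box and the core of the site of HINFP, a zinc finger activator of H4 genes, searched as GTCCGC.
H4C2 (chr6:26027284-26027403, reverse strand): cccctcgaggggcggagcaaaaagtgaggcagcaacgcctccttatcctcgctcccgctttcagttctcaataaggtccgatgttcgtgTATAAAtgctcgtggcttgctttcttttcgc
H4C9 (chr6:27139162-27139281, forward strand): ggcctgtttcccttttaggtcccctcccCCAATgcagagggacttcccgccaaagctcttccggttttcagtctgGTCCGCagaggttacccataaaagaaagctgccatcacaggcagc
H3C3 (chr6:26045264-26045383, forward strand): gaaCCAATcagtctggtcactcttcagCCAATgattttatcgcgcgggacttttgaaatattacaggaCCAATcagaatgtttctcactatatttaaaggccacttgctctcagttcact
H3C3 held 3 CCAAT boxes and H4C9 a CCAAT box and the core of the HINFP site, and neither gene had a peak within 1 kb. H4C2 held a TATA box and no exact match to the other motifs.

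Promoter elements differed by histone type. RefSeq promoters on GRCh38, from 250 bases before to 50 after the start, were matched for 50 of 55 genes and searched on both strands, beside all 35116 promoters of the same table. CCAAT occurred in 86.0% of histone promoters and 34.6% of all promoters, and TATAAA in 66.0% and 11.5%. All matched promoters of H1, H2A, H2B and H3 genes held CCAAT, but only 3 of 10 of H4 genes. The octamer ATTTGCAT was found in 9 of 11 H2A and 12 of 15 H2B promoters and in no promoter of another type, compared with 1.77% of all promoters. AAACACA was found in 6 of 6 H1 promoters and in none of the other types (5.64% of all promoters), and GTCCGC in 5 of 10 H4 promoters and in none of the other types (12.8% of all promoters). Octamers and H1 boxes lay far upstream or on the other strand in many genes: with the promoter shortened to 100 bases before the start they were found in 7 and 0 promoters. The octamers of this shorter window were in 1 of 11 H2A and 6 of 15 H2B promoters. On the strand of the gene only, 1 of 11 H2A and 11 of 15 H2B promoters held an octamer. Promoters in a divergent pair overlap, so a match can count for both genes.

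Split by accessibility, the same elements were present in both sets. CCAAT was found in 27 of 33 matched promoters of covered genes and in 12 of 13 of genes without a peak within 1 kb. TATAAA was found in 24 of 33 and in 7 of 13, and the octamer in 15 of 33 and in 5 of 13. The stem-loop followed the stop codon in 36 of 38 covered genes and in 13 of 13 genes without a peak.

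Histone genes elsewhere in the genome also included genes with and without a peak. Of 15 replication-dependent genes outside the window, 9 (60.0%) had a peak within 1 kb of a TSS in both replicates, against 79.3% of all protein-coding genes, and the median fold enrichment over the 15 was 15.4 and 14.8. The highest, at 550 and 595 stacked reads, was a peak shared by H2AC20, H2AC21 and H2BC21 on chromosome 1. H3C14, H3C15, H4C14, H4C15 and H2BC12L had none, and H2AC18 had a peak in replicate 1 alone. Unique words were counted only for genes of the window, not for these genes outside it. The part of repeated sequence in their missing peaks, and so in the share and the median over the 15, was not tested. Genes of histone variants, several of which are also made outside S phase, had a peak in 11 of 12 cases (91.7%) with a median of 59.5 and 50.5. H3-5 was the exception and CENPA, the H3 variant of the centromere, was the highest at 565 and 521 stacked reads.

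Genes for the factors that transcribe and process histone mRNA were covered throughout. All 20 of 20 had a peak within 1 kb in both replicates, against 79.3% of all protein-coding genes, with a median fold enrichment of 67.4 and 67.1 against 38.9 and 40.0. NPAT, the coactivator that gathers at histone loci, had 309 and 343 stacked reads, and SLBP, which binds the stem-loop of histone mRNA, had 368 and 417. HINFP had 335 and 295 and CASP8AP2, a component of the histone locus body, 264 and 272. The lowest was CPSF2, a subunit of the complex that cleaves histone pre-mRNA, with 72 and 74, and the highest were YY1, a zinc finger transcription factor, with 504 stacked reads in replicate 1 and SYMPK, a scaffold of the cleavage complex, with 472 in replicate 2. Among the 22 other protein-coding genes of the window, 16 had a peak. They included a gene without a symbol (chr6:26195595-26199293), whose peak of 358 and 391 stacked reads was that over H2AC7 and H2BC7. Those without were the olfactory receptor gene OR2B6, the transporter genes SLC17A1, SLC17A2, SLC17A3 and SLC17A4, and the zinc finger gene ZNF391. The highest of these neighbours was ZNF184, a zinc finger gene, with 594 and 623 stacked reads.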

How the data were processed

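ATAC-seq was performed on 2 replicates of CAMA-1, and the submitters' processing notes name Trim Galore 0.6.5, Bowtie2 2.3.5.1, MACS2 2.2.6 and the build hg38. The authors deposited a separate peak list for each replicate with a score, a fold enrichment (a ratio of peak height to background), and −log10 values of p and q (columns of a p-value and a q-value on that scale). The score is 10 times the −log10 q without its decimals, and the lowest −log10 q listed was 2.24 in replicate 1 and 2.07 in replicate 2. Settings of the peak caller, the handling of duplicate and multiply aligned reads and any Tn5 shift are not given in the sources used here. The lists hold no library depth.

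Fold enrichments were whole multiples of 0.230 in replicate 1 and 0.221 in replicate 2, so heights were taken as the multiple minus 1, over a background of 3.35 and 3.52 stacked reads. Exact Poisson intervals at 95% cover counting error only. Genes and TSSs came from GENCODE release 44, a canonical TSS being that of the transcript tagged canonical. For each gene, the strongest peak within 1 kb of any TSS was used, and a gene without a peak ranked lowest. Unique words, promoter motifs and stem-loops were counted in hg38 or in RefSeq promoters. No test was made, since the replicates form a single condition and genes are not replicates. The functions were tested on simulated data. Scripts ran under Python 3.11.15 with numpy 2.4.6 and scipy 1.17.1, and figures were drawn by matplotlib 3.10.9.

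The members and lists were chosen with earlier results of these data known. Genes named in the text were members without a TSS peak, the 5 highest and 5 lowest members by mean rank, the highest and lowest of each type, the 3 highest and 3 lowest pairs, the testis genes and, of other lists, genes without a peak and the highest; further members, NPAT, SLBP, HINFP, CASP8AP2, CPSF2 and SYMPK were named after their values were seen. Alternatives limited the lists to peaks with −log10 q of 10 or more or to the 50000 strongest, or used distances of 100 bp and 3 kb, the canonical TSS, the nearest peak, distinct peaks, other pair distances and other promoter windows.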

Additional observations from a re-analysis of the deposited data

How the results depend on the processing

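Of 132 alternative values for 19 results, 102 stayed within the spread of the replicates or within 1.5 times the count, 29 moved and 1 reversed. Leaving out either replicate moved none. For medians and ratios this was fixed in advance, because their main value was the mean of both replicates and their limit was the SD. Such values are counted among the 102 and say nothing about stability. The cause of these moves was not tested. A −log10 q of at least 10 gave 0 testis genes with a peak in place of 1 and an H1 median fold enrichment of 21.2. The 50000 strongest peaks gave 0 testis genes, 10 other genes of the window in place of 16, and medians of 21.2 for H1 and 20.1 for H4. Peaks within 100 bp gave 0 testis genes, a ratio to all genes of 1.84, and medians of 21.2 for H1 and 14.1 for H4. Peaks within 3 kb gave a histone median of 68.1, a ratio of 1.54, and medians of 62.7 for H1 and 60.1 for H3. With the canonical TSS alone, the histone median was 64.4, the ratio 1.98 and the H3 median 32.9. With the canonical TSS required to lie under the peak, an alternative chosen after seeing the data, there were 0 testis genes, a histone median of 64.4, a ratio of 2.21, and medians of 21.2 for H1, 32.9 for H3 and 14.1 for H4. With the nearest peak in place of the strongest, the ratio was 1.82 and the H4 median 19.0. With each distinct peak counted once and each gene without a peak kept as an entry, the histone median was 32.6 in place of 66.5, and the ratio, added after seeing the data, turned from 1.69 to 0.906; over listed distinct peaks alone the medians were 72.2 and 74.5 for histone genes against 48.8 and 50.2 for all genes. The octamer was found in 7 promoters in the shorter window and in 12 on the strand of the gene only, and the H1 box in 0 in the shorter window. Pairs under a single peak numbered 9 of 10 at most 500 bp apart, 9 of 13 at most 2 kb apart and 10 of 12 over every annotated TSS.

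No paired analysis was possible because there was only 1 condition, to which the replicates both belong. With 2 libraries, peaks below the threshold of the caller cannot be told from closed chromatin, and heights under 30 stacked reads carry wide counting intervals (12.2 to 30.9 at H4C11). Members that share a peak are not independent.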
